A study of Mus musculus with 20 samples.

Results

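The sarcoplasmic reticulum calcium cycling genes are 10 genes chosen by name: Ryr2, Atp2a2, Pln, Sln, Casq2, Trdn, Jph2, Hrc, Asph and Slc8a1. All 10 were found among the 26214 genes listed in each of 2 tables of the authors' own comparisons. RNA came from the heart apex of 20 uninjured mice of the strain FVB/NRj, wild-type and 28 days old, after AAV9 had been given through the retro-orbital vein. Mice of the hTNNT2 Zeb2os group received Zeb2os, a long noncoding RNA antisense to Zeb2, from the hTNNT2 promoter (5 mice, 3 of them male), and those of the hTNNT2 control group a control vector with that promoter (5 mice, 0 male). Mice of the CMV Zeb2os group received Zeb2os from the CMV promoter (5 mice, 1 male), and those of the CMV control group a control vector with that promoter (5 mice, 2 male). What the control vectors carried was not stated in the labels. The hTNNT2 promoter, of cardiac troponin T, is active in heart muscle cells, and the CMV promoter in most cell types. Values per mouse were not analysed here, so each gene had 1 mean over the 10 libraries of a table and 1 log2 fold change and standard error (SE). Positive fold changes mean a higher level in Zeb2os hearts. Males were present in the hTNNT2 Zeb2os group and absent from its control, and without values per mouse the part of sex in that comparison was not tested.

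In each heartbeat calcium entering through the cell membrane opens the ryanodine receptor, the release channel of the sarcoplasmic reticulum, and the released calcium starts contraction. The pump SERCA2a then returns calcium to the store under the restraint of small inhibitor proteins, and the sodium-calcium exchanger removes the rest across the cell membrane. In the heart these genes are known for their place in arrhythmia and heart failure, where slowed uptake and leaky release weaken the beat.

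Of the calcium cycling genes, 0 passed an adjusted p-value under 0.05 in either of the authors' deposited DESeq2 tables. With hTNNT2, 9 of the 10 had a p-value, and of all 21461 genes with one 7 (0.0326%) passed in the authors' deposited table. With CMV all 10 had one, and of all 21318 genes 1 (0.00469%) passed in the authors' deposited table, Zeb2os itself. At an unadjusted p under 0.05, 1 calcium cycling gene, Ryr2, was lower with hTNNT2 Zeb2os in the authors' deposited table, against 3.92% of all genes in either direction and 1.64% lower. With CMV Zeb2os 0 calcium cycling genes had an unadjusted p under 0.05 in the authors' deposited table, against 1.67% of all genes. Here and below, shares at this threshold are over genes of all levels, and those among genes of like count are not given. The cargo itself was seen in both: Zeb2os had a log2 fold change of 4.53 (SE 0.083) with hTNNT2 and 3.66 (SE 0.071) with CMV in the authors' deposited tables, each with an adjusted p listed as 0. The deposited fold changes have the form of shrunken values, and with the shrinkage approximately undone Zeb2os stood at 8.61 (SE 0.16) with hTNNT2 and 6.83 (SE 0.13) with CMV. In bulk tissue, fewer cells of a type and less RNA per cell cannot be told apart.

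**Figure D1:**
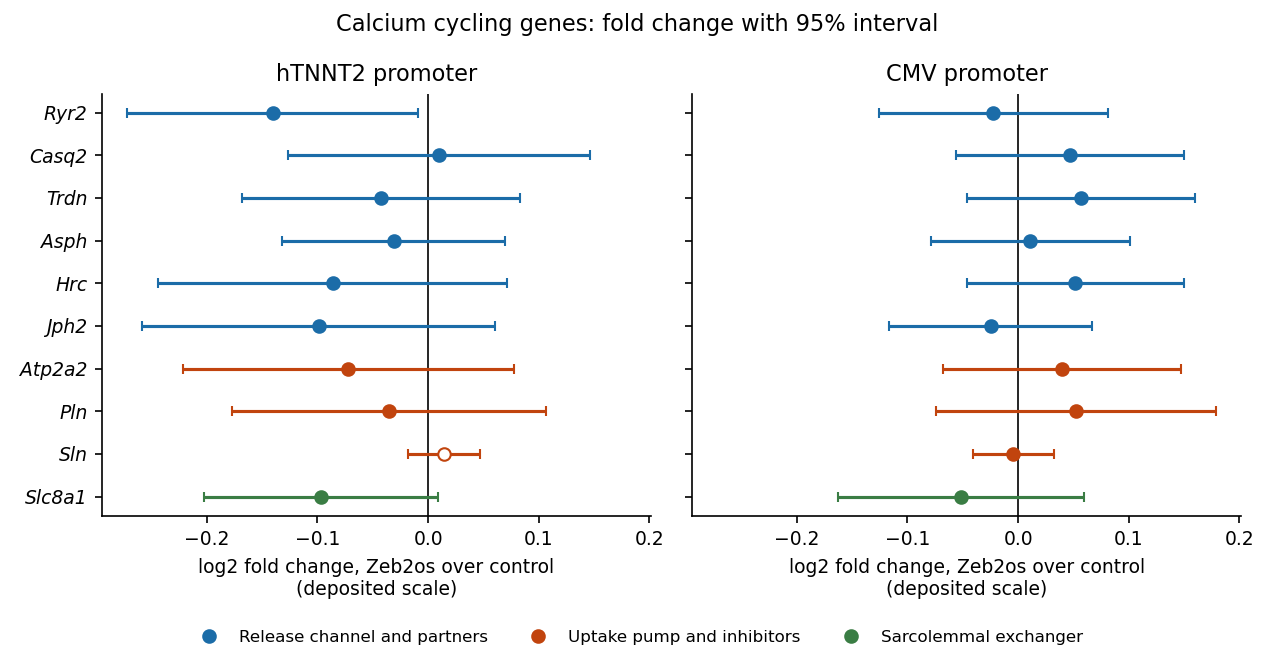
Deposited log2 fold change of Zeb2os over control (horizontal axis) for the 10 calcium cycling genes (vertical axis), hTNNT2 promoter on the left and CMV promoter on the right; points are the authors' values and whiskers 95% intervals from the deposited SE. Of the 19 filled points, Ryr2 with hTNNT2 alone has an interval that leaves out 0 (-0.27 to -0.0091); the open point is Sln with hTNNT2, listed without a p-value.

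The genes differed widely in level. Mean normalised counts were divided by the exonic length of each gene in GENCODE M21 on GRCm38, and the 2 tables, normalised separately by the authors, were read one at a time. Atp2a2, which encodes the pump SERCA2a, led with 142809 counts per kilobase in the hTNNT2 table and 122319 in the CMV table. It took 1.69% and 1.68% of all mean counts, and its mean count of 868422 in the authors' deposited hTNNT2 table and 743821 in the deposited CMV table was the 4th highest of all genes in both. Pln, phospholamban, the main inhibitor of that pump in the ventricle, followed at 95340 and 84026 counts per kilobase. The pump thus stood 1.5 (hTNNT2) and 1.46 (CMV) times above its inhibitor per kilobase, and 1.36 and 1.32 times by the longest transcript. Below them came Hrc, Casq2 and Ryr2 at 22971, 15521 and 11318 counts per kilobase in the hTNNT2 table, then Jph2 at 5645, Slc8a1 at 2944, Trdn at 2114 and Asph at 1001.

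The CMV table gave the same order, with 19276 for Hrc, 13382 for Casq2, 9622 for Ryr2, 4774 for Jph2, 2553 for Slc8a1, 1805 for Trdn and 860 counts per kilobase for Asph. Because no value per mouse was analysed, the spread behind this order is unknown. Neighbours that changed places when the longest transcript replaced all exonic bases should be read as unresolved: Casq2 with Ryr2, at 16614 and 19380 counts per kilobase of the longest transcript in the hTNNT2 table, and Slc8a1 with Trdn, at 2998 and 4379. Sln, sarcolipin, the pump inhibitor of atria and slow skeletal muscle, lay far below, at 17.1 counts per kilobase in the hTNNT2 table and 4.12 in the CMV table. Pln stood 5571 (hTNNT2) and 20408 (CMV) times above Sln per kilobase. These ratios rest on a Sln mean count of 22.6 (hTNNT2) and 5.43 (CMV) in the authors' deposited tables, and the part of single libraries in the hTNNT2 mean, where Sln has no p-value, was not tested. The 10 genes together made up 3.26% and 3.25% of all mean counts.

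**Figure D2:**
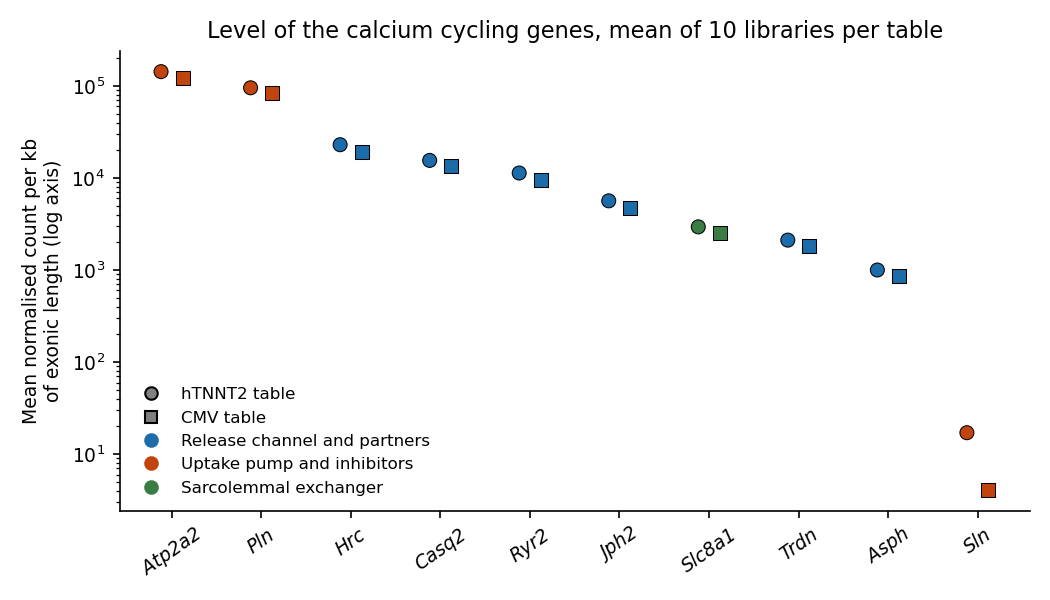
Mean normalised count per kilobase of exonic length (vertical, log axis) of the 10 calcium cycling genes (horizontal axis); circles are the hTNNT2 table and squares the CMV table, each a mean over 10 libraries with no error available. Both tables place Atp2a2 and Pln at the top and Sln at the bottom, with 142809 and 17.1 at the ends in the hTNNT2 table.

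Related genes that are best known from skeletal muscle or other tissues were mostly far lower. Ryr2 stood 19310 (hTNNT2) and 27726 (CMV) times above Ryr1, the release channel of skeletal muscle, per kilobase, and 1314 and 1282 times above Ryr3. Atp2a2 stood 9165 and 11125 times above Atp2a1, the pump of fast skeletal muscle, and 767 and 794 times above Atp2a3. Jph2 stood 14.4 times above Jph1 in both tables. Slc8a1 stood 181 and 166 times above Slc8a2 and 1946 and 2053 times above Slc8a3. Casq1, the calsequestrin of skeletal muscle, was the exception, with Casq2 only 2.06 times above it per kilobase in both tables.

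The release channel and its partners were taken first. Ryr2, the release channel itself, lies on the minus strand of chromosome 13 (11553102 to 12106945, GRCm38). With hTNNT2 Zeb2os it had a log2 fold change of -0.14 (SE 0.067, p = 0.0362, adjusted p = 1.00), as the authors' deposited table lists it. The 95% interval from that SE ran from -0.27 to -0.0091, and a value of -0.14 corresponds to a change of -9.28% on the deposited scale. Among the 6663 genes whose mean count reached 1000, 2.03% lay lower than Ryr2 with hTNNT2, and Ryr2 ranked 633 of all genes by p in the authors' deposited table. With CMV Zeb2os, Ryr2 stood at -0.022 (SE 0.053, p = 0.672) in the authors' deposited table, with an interval from -0.13 to 0.081. The difference between promoters, hTNNT2 minus CMV, was -0.12 (SE 0.085, adjusted p = 1), so the values for Ryr2 were not shown to differ between them.

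Casq2, calsequestrin, the calcium buffer held beside the release channel, lies on the plus strand of chromosome 3 (102086415 to 102146514). It was the single gene of the 9 with a p-value that stood above 0 with hTNNT2 Zeb2os, at 0.0098 (SE 0.069, p = 0.887) in the authors' deposited table. With CMV Zeb2os it stood at 0.047 (SE 0.052, p = 0.374) in the authors' deposited table. Triadin and junctin anchor calsequestrin to the channel, and their genes are Trdn (chromosome 10, 33080554 to 33476709) and Asph (chromosome 4, 9448069 to 9669344). Trdn stood at -0.042 (SE 0.064, p = 0.510) with hTNNT2 and at 0.057 (SE 0.053, p = 0.283) with CMV in the authors' deposited tables. Asph stood at -0.031 (SE 0.051, p = 0.546) with hTNNT2 and at 0.011 (SE 0.046, p = 0.809) with CMV in the authors' deposited tables. Asph also encodes aspartyl hydroxylase and has 20 annotated transcripts, so its value is that of the whole gene and not of junctin.

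Hrc encodes the histidine-rich calcium-binding protein of the reticulum (chromosome 7, 45335290 to 45338974), and Jph2 junctophilin, which ties the reticulum to the cell membrane (chromosome 2, 163336242 to 163397993). Hrc stood at -0.086 (SE 0.080, p = 0.283) with hTNNT2 and at 0.052 (SE 0.050, p = 0.302) with CMV in the authors' deposited tables. Jph2 stood at -0.099 (SE 0.081, p = 0.223) with hTNNT2 and at -0.025 (SE 0.047, p = 0.596) with CMV in the authors' deposited tables. With hTNNT2 these had the largest SE of the 10 genes. Among genes within 2-fold of their mean count, 94.7% had a smaller SE than Jph2 and 89.6% a smaller SE than Hrc in the authors' deposited hTNNT2 table, against 20.8% and 33.1% in the deposited CMV table. Of the 6 genes of the release complex, 5 stood below 0 with hTNNT2 and 2 with CMV, at medians of -0.064 and 0.029.

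Among the genes of uptake, Atp2a2 (chromosome 5, 122453513 to 122502225) stood at -0.072 (SE 0.076, p = 0.344) with hTNNT2 and at 0.040 (SE 0.055, p = 0.469) with CMV in the authors' deposited tables. The 95% intervals ran from -0.22 to 0.077 and from -0.068 to 0.15. Pln (chromosome 10, 53337667 to 53345987) stood at -0.035 (SE 0.072, p = 0.625) with hTNNT2 and at 0.052 (SE 0.064, p = 0.416) with CMV in the authors' deposited tables. Pump and inhibitor thus lay on the same side of 0 in each comparison, and all 4 intervals included 0.

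Sln (chromosome 9, 53850164 to 53854560) stood at 0.014 (SE 0.017) with hTNNT2 and was 1 of 14 genes for which the authors' deposited table gives a statistic but no p-value. The atrial myosin light chains Myl7 and Myl4 were among these 14, with mean counts of 111 and 251 in the authors' deposited hTNNT2 table. So were Lars2, Mir6236, Col11a1 and others that are not in the atrial list. With CMV, 7 genes had a statistic but no p-value, among them the atrial markers Myl7 and Bmp10 but not Sln. DESeq2 leaves out a p-value in this way where a single library holds an extreme count, but which library and why were not tested. The SE of Sln was also low for its level with hTNNT2, at 0.017 in the authors' deposited table against a median of 0.053 for genes within 2-fold of its mean count of 22.6. With CMV, Sln stood at -0.0043 (SE 0.019, p = 0.816) at a mean count of 5.43 in the authors' deposited table.

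Markers of atrial muscle were present but low in sum beside a list called ventricular here, which also holds genes shared with atrial muscle. Of the 10 atrial markers, 8 had a p-value with hTNNT2, 3 above 0 and 5 below, at a median of -0.011, and 8 with CMV, 6 above and 2 below, at a median of 0.036. Their mean counts summed to 0.0216% (hTNNT2) and 0.0222% (CMV) of all mean counts, against 17.2% in both tables for the 10 genes of that list. Ttn and Myh6 led that sum, with mean counts of 5199973 and 1935773 in the authors' deposited hTNNT2 table. The sums are not divided by length, so these shares do not measure ventricular against atrial muscle. Nppa and Fam189a2, the most abundant of the atrial markers, had log2 fold changes of 0.047 (SE 0.072) and -0.025 (SE 0.059) in the authors' deposited hTNNT2 table. By an unadjusted p under 0.05, 0 atrial markers were higher and 1 lower there, against 2.27% and 1.64% of all genes. This was Bmp10, at -0.12 (SE 0.042, p = 0.00457, adjusted p = 0.611) and a mean count of 17.0 in the authors' deposited table. The part of atrial tissue in the values of Sln was not tested.

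Slc8a1, the sodium-calcium exchanger of the cell membrane (chromosome 17, 81373105 to 81738377), stood next to Ryr2 in p with hTNNT2, at -0.097 (SE 0.054, p = 0.0730) in the authors' deposited table. Its 95% interval ran from -0.20 to 0.0090. With CMV it stood at -0.052 (SE 0.057, p = 0.363), the lowest of the calcium cycling genes in the authors' deposited CMV table. Slc8a1, Ryr2 and Jph2 were below 0 in both comparisons.

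The promoter windows of Ryr2 and Slc8a1, which had the smallest p with hTNNT2, and of Casq2, the highest tested gene there, are shown so that the sequence can be read beside the values. They are RefSeq sequences on GRCm38.p6, from 250 bases before to 50 after the start of transcription. Of the 10 genes, 6 were matched (Casq2, Hrc, Jph2, Pln, Ryr2 and Slc8a1). Capitals mark CACCT, the core bound by ZEB factors, or AGATAA, a site form of GATA factors, searched on both strands, where they read AGGTG and TTATCT. The motifs share no bases in these windows.
Ryr2, chr13:12106896-12107195, minus strand: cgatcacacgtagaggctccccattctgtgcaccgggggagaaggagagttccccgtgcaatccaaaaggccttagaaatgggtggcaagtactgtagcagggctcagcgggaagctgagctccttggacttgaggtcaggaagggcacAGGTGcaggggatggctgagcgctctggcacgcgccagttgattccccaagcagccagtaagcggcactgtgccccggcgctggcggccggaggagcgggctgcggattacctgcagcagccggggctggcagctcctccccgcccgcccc
Slc8a1, chr17:81738338-81738637, minus strand: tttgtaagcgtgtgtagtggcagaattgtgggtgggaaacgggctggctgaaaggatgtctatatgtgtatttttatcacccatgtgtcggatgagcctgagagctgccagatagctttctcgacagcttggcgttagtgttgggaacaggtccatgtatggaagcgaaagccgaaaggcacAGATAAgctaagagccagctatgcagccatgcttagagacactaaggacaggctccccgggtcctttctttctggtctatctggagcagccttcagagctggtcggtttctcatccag
Casq2, chr3:102086165-102086464, plus strand: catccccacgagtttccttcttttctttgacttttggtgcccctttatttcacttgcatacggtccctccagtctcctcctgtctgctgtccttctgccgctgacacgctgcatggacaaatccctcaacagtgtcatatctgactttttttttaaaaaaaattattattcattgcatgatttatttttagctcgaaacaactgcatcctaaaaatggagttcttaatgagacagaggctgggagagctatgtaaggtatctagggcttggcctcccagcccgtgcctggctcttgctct
CACCT was found in the windows of Ryr2 and Pln, and in 51.9% of all 32851 windows of the table. AGATAA was found in those of Slc8a1 and Pln, and in 11.2% of all windows. Neither was found in those of Casq2, Hrc and Jph2. Counted from the start, the match began at -101 in Ryr2 and at -68 in Slc8a1. A match is a string of letters and no measure of binding.

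Taken by direction, 8 of the 9 genes with a p-value stood below 0 with hTNNT2 Zeb2os, at a median log2 fold change of -0.072. Of all 21461 genes 51.3% stood below 0, at a median of -0.0008. The share grew with level, to 56.7% of genes whose mean count reached 1000 (median -0.0099) and 67.0% of the 725 that reached 10000 (median -0.021), a limit chosen after values were seen. Except for Sln, all the calcium cycling genes have mean counts above 10000. With CMV Zeb2os the split ran the other way, with 6 of 10 above 0, at a median of 0.025. Without Sln, on the same 9 genes as with hTNNT2, 6 of 9 stood above 0 with CMV, at a median of 0.040. Of all genes with CMV 48.3% stood above 0, of those whose mean count reached 1000 58.1% (median 0.0087), and of the 597 that reached 10000 72.0% (median 0.021). Genes measured in the same mice are not independent, and these counts carry no test.

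**Figure D3:**
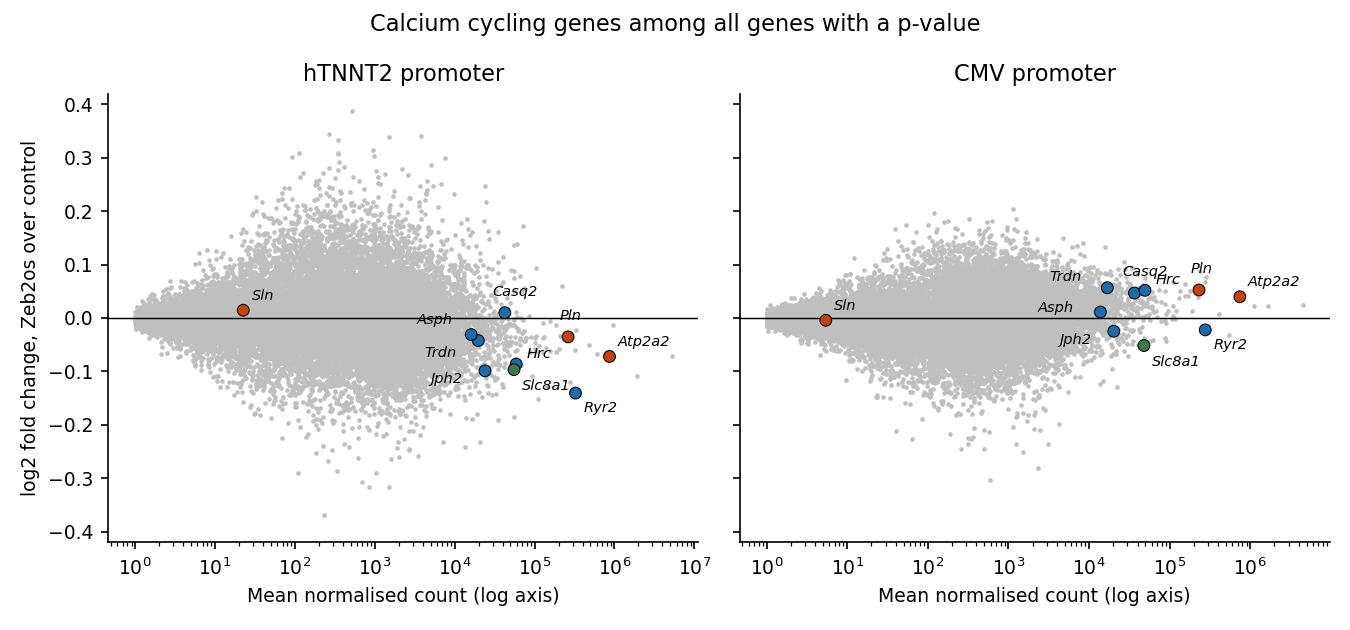
Deposited log2 fold change of Zeb2os over control (vertical axis) against mean normalised count (horizontal, log axis), hTNNT2 left and CMV right. Grey points are genes with a p-value, those of the lowest counts left out, and coloured points the 10 calcium cycling genes. Zeb2os itself lies above the plotted range. Most of the calcium cycling genes sit at the far right, mostly below 0 with hTNNT2 (8 of 9 with a p-value) and on both sides of 0 with CMV (6 of 10 above).

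Setting the promoters side by side, the hTNNT2 minus CMV difference was tested in 9 of the 10 genes. It lay below 0 in all 9, against 50.9% of the 20754 genes tested in both tables and 60.3% of those reaching a mean count of 1000 in both. All 9 have mean counts above 10000, and the share among genes of that level was not computed for the difference. Because the shares in each comparison grew with level, the 60.3% is not a share for genes of like level. The tables hold different mice. Males were 3 with hTNNT2 Zeb2os and 0 in its control, but 1 with CMV Zeb2os and 2 in its control. The part of sex, and of the size of the Zeb2os response, in the difference was not tested. None of the 9 passed this normal test on the authors' fold changes and SE, with 0 at an adjusted p under 0.05 (0.00482% of all genes) and 0 at an unadjusted p under 0.05 (2.65% of all genes). Every adjusted p was 1, and unadjusted values ran between 0.145 for Hrc and 0.672 for Casq2. Hrc had the largest, at -0.14 (SE 0.095, interval -0.32 to 0.047), followed by Ryr2 at -0.12 (interval -0.29 to 0.049) and Atp2a2 at -0.11 (SE 0.094, interval -0.30 to 0.072). Trdn stood at -0.099 (SE 0.083), Pln at -0.088 (SE 0.097) and Jph2 at -0.074 (SE 0.094). The smallest were Slc8a1 at -0.045 (SE 0.078), Asph at -0.042 (SE 0.069) and Casq2 at -0.037 (SE 0.087). The intervals include 0 and also differences as large as the hTNNT2 values themselves, so they do not show that the promoters act alike.

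Other genes of calcium handling were followed as a list of 59, of which 58 were in the tables with a p-value. With hTNNT2 Zeb2os, 28 stood above 0 and 30 below, at a median of -0.0028, and with CMV Zeb2os 35 above and 23 below, at a median of 0.0092. An adjusted p under 0.05 was reached by 0 of them in the authors' deposited DESeq2 tables. Of all genes 0.0326% (hTNNT2) and 0.00469% (CMV) reached it. By an unadjusted p under 0.05, 0 were higher and 2 lower with hTNNT2 in the authors' deposited table, where 2.27% and 1.64% of all genes were. With CMV, 2 were higher and 1 lower in the authors' deposited table, against 0.661% and 1.01% of all genes.

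With hTNNT2 the smallest p belonged to Speg, a kinase that acts on the ryanodine receptor and the pump, at -0.19 (SE 0.073, p = 0.00915, adjusted p = 0.764) in the authors' deposited table. Cacna1c, the pore of the L-type channel whose current triggers release, stood at -0.14 (SE 0.069, p = 0.0409) in the authors' deposited table. Slc8b1, the sodium-calcium exchanger of mitochondria, stood at 0.14 (SE 0.073, p = 0.0628) in the authors' deposited table. The phosphodiesterases Pde4d and Pde4b, which break down cAMP, both stood at -0.10 (SE 0.068 each), and the phosphatase inhibitor Ppp1r1a at 0.11 (SE 0.075), in the authors' deposited table.

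With CMV the smallest p belonged to Mrln, a peptide inhibitor of the pump in skeletal muscle, at -0.12 (SE 0.048, p = 0.0128) and a mean count of 19.3 in the authors' deposited table. Ppp1r3a, a phosphatase subunit found at the ryanodine receptor, had -0.10 (SE 0.083, p = 0.205) with hTNNT2 and 0.13 (SE 0.062, p = 0.0328) with CMV in the authors' deposited tables. Its difference between promoters of -0.24 (SE 0.10) had the smallest p of the list, at 0.0217, with an adjusted p of 1. Micu2, a gatekeeper of mitochondrial calcium uptake, stood at 0.12 (SE 0.061, p = 0.0417) with CMV in the authors' deposited table. The protein kinase A anchor Akap7 stood at 0.073 (SE 0.046), the kinase subunit Prkaca at 0.081 (SE 0.056) and the kinase Camk2g at 0.065 (SE 0.047) with CMV in the authors' deposited table.

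Markers of the cell types of the heart are given beside these genes. The list called ventricular holds no calcium gene and is not limited to genes of the ventricle. Its markers stood below 0 in 9 of 10 with hTNNT2 (median -0.051) and in 0 of 10 with CMV (median 0.045). Their difference between promoters lay below 0 in 10 of 10, at a median of -0.11, beside -0.088 for the 9 calcium cycling genes. With hTNNT2, macrophage markers stood above 0 in 10 of 10 (median 0.13), smooth muscle and pericyte markers in 10 of 10 (median 0.10) and fibroblast markers in 9 of 10 (median 0.13). Of these 30, 1 rose in the authors' deposited hTNNT2 table, the macrophage lysozyme Lyz2 at 0.34 (SE 0.071, adjusted p = 0.0154), against 0.0326% of all genes in either direction. These 30 come from lists grouped here for standing above 0, so a joint count of calls among them is no test. By an unadjusted p under 0.05, 4 macrophage, 1 smooth muscle and 5 fibroblast markers were higher and 0 lower in the authors' deposited table. Of all genes 2.27% were higher and 1.64% lower. Of the ventricular and endothelial markers 0 were higher and 0 lower. The atrial, skeletal muscle and lymphocyte lists had 0 higher and 1 lower each. Mrc1, a macrophage receptor, stood at 0.26 (SE 0.074), the matrix genes Dcn and Col1a2 at 0.25 (SE 0.063) and 0.22 (SE 0.081), and the pericyte channel Kcnj8 at 0.17 (SE 0.064) in the authors' deposited hTNNT2 table. With CMV, the macrophage, smooth muscle and fibroblast lists had 4, 1 and 8 members above 0 in turn, at medians of -0.0070, -0.056 and 0.017.

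Endothelial markers had medians of -0.0051 with hTNNT2 and -0.030 with CMV, with 4 and 2 of 10 above 0. The 10 skeletal muscle markers had medians of -0.021 and -0.0019, with 3 and 4 of 10 above 0. The 8 lymphocyte markers had medians of -0.045 and 0.038, with 1 and 7 of 8 above 0. Their hTNNT2 minus CMV difference lay below 0 in 8 of 8 lymphocyte and 8 of 10 skeletal markers. By the normal test, 2 lymphocyte and 0 skeletal markers had an unadjusted p under 0.05 (2.65% of all genes). Of both lists 0 passed an adjusted p under 0.05 in that test (0.00482% of all genes). All lymphocyte markers, and all of the skeletal ones but Ckmt2 and Myl1, had mean counts under 100. At such counts the deposited fold changes are strongly shrunken, so these medians are not comparable in size with those of abundant lists. With the shrinkage approximately undone, the medians were -0.36 (hTNNT2) and -0.075 (CMV) for skeletal markers. For lymphocyte markers they were -0.63 (hTNNT2) and 0.43 (CMV). Of 5 red cell markers 4, all globins, are listed at 0. Alas2 stood at 0.033 (hTNNT2) and -0.035 (CMV), at mean counts of 3556 and 2940 in the authors' deposited tables. Why the globins are listed at 0 was not tested, so they do not show that red cell RNA was absent. The part of cell makeup in the values of the calcium cycling genes was not tested.

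**Figure D4:**
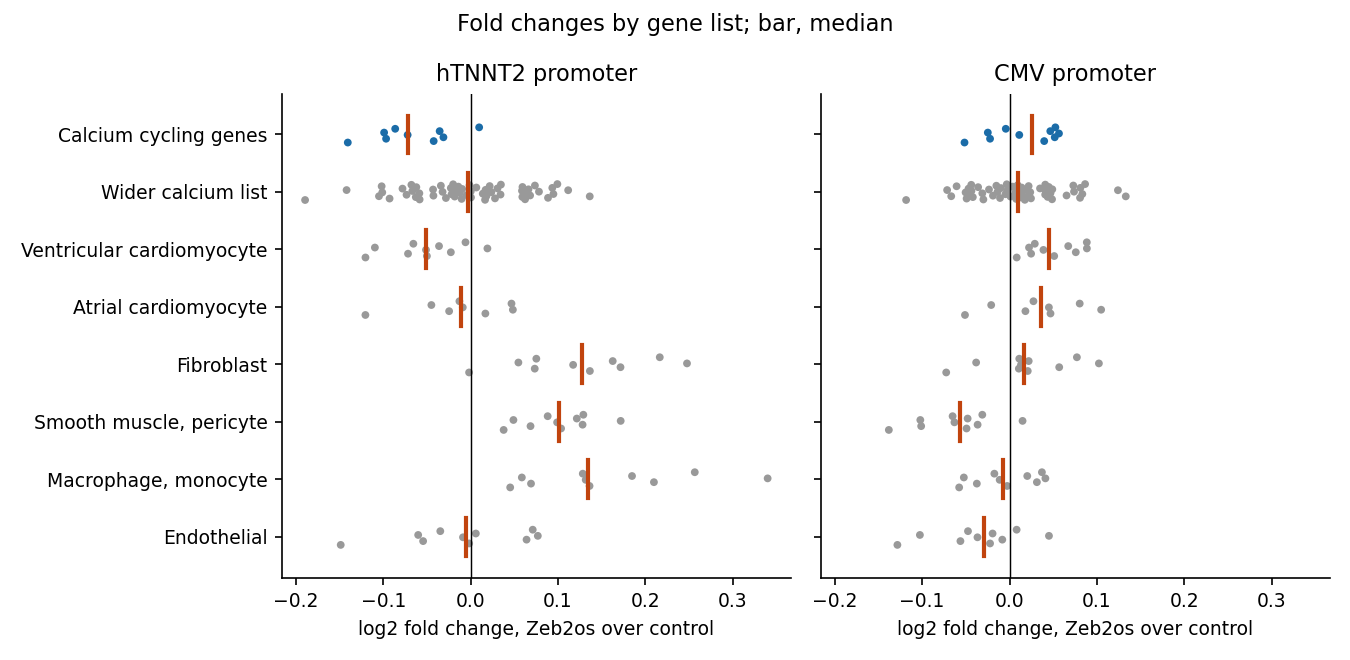
Deposited log2 fold change of Zeb2os over control (horizontal axis) for the members of 8 gene lists (vertical axis), hTNNT2 left and CMV right; each point is a gene with a p-value and the bar is the median of the list. Calcium cycling genes (median -0.072 and 0.025, the latter with Sln and 0.040 without it) lie beside ventricular cardiomyocyte markers (-0.051 and 0.045). Fibroblast, smooth muscle and macrophage markers lie above 0 with hTNNT2 in 9, 10 and 10 of 10.

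The scale of these fold changes bears on their size. The deposited SE has a sharp upper edge, with a 99th percentile of 0.08287 under a maximum of 0.08288 for hTNNT2 and 0.07132 under 0.07133 for CMV in the authors' deposited tables. It falls towards 0 at low counts, to a median of 0.0073 (hTNNT2) and 0.0054 (CMV) below a mean count of 0.5. This is the form that a normal prior on fold changes gives, with a width of 0.17 (hTNNT2) and 0.14 (CMV) by the edge, though no prior is stated in the sources used here. Undoing such a prior, an approximate step, leaves each statistic and p as it is. It takes Ryr2 with hTNNT2 to -0.18 (SE 0.085), Slc8a1 to -0.11 (SE 0.061), Jph2 to -0.16 (SE 0.14) and Hrc to -0.14 (SE 0.13). The difference between promoters for Jph2 becomes -0.14 (SE 0.15), against -0.074 on the deposited scale. For Sln it gives 1.41 (SE 1.63) with hTNNT2 and -0.25 (SE 1.07) with CMV, so the narrow interval of Sln on the deposited scale does not limit a change in its RNA.

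**Figure D5:**
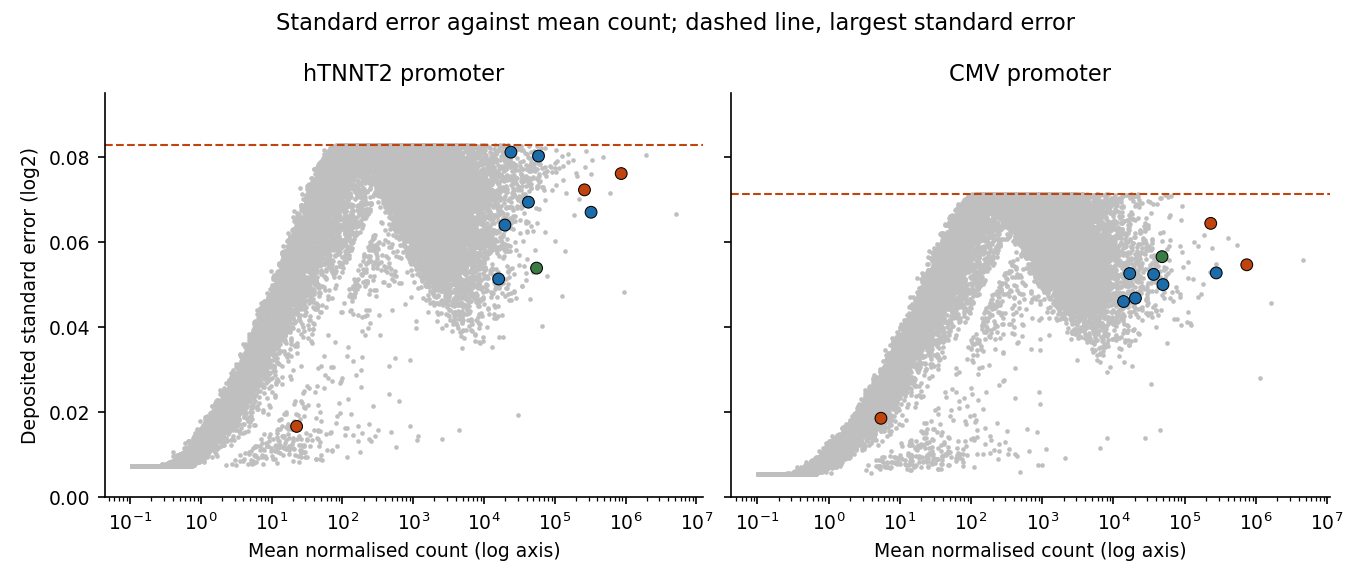
Deposited SE of the log2 fold change (vertical axis) against mean normalised count (horizontal, log axis), hTNNT2 left and CMV right. Grey points are genes with a p-value, those of the lowest counts left out, and coloured points the 10 calcium cycling genes. The dashed line is the largest SE (0.083 and 0.071). Jph2 and Hrc lie close under the line with hTNNT2, at 0.081 and 0.080, and Sln lies far below it in both.

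Several genes share their ground with others, and whether reads were counted by strand was not stated. On the opposite strand, Clvs1 shares 14.3% of the exonic bases of Asph (2302 bases), with log2 fold changes of 0.12 (SE 0.059) and -0.042 (SE 0.050) at a mean count of 39.3 (hTNNT2) and 32.6 (CMV) in the authors' deposited tables. Cep85l, in which Pln lies on the opposite strand, shares 5.11% of the exonic bases of Pln and stood at -0.031 (SE 0.081) with hTNNT2 and -0.012 (SE 0.063) with CMV in the authors' deposited tables. The transcript Gm47644, not analysed here, shares 59.6% of the exonic bases of Pln on the opposite strand. The part of this overlap in the count of Pln, and so in the ratio of Atp2a2 to Pln, was not tested. The antisense transcript D830005E20Rik runs inside Trdn with 0 exonic bases shared, at mean counts of 4678 and 4422 in the authors' deposited tables. Hrc, Jph2 and Sln overlap no other annotated gene.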

How the data were processed

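Per the labels' protocols, a kit that removes ribosomal RNA made the libraries from heart apex RNA. The authors used Trim Galore, GRCm38 and mm10, and DESeq2, per the submitters' processing notes. No source used here names the aligner, counter, strand setting or design formula, or the depth per library. Per the file headers, the authors deposited for each comparison a mean normalised count (a signal that cannot be negative), a log2 fold change with its SE, a Wald statistic (a score, of sign opposite to the fold change), a p-value and an adjusted p-value. Mean counts summed to 51284505 (hTNNT2) and 44295571 (CMV).

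Genes were matched by symbol. Genes were called by the authors' adjusted p-value at 0.05, which is left out of their hTNNT2 table for 3292 genes of low count that have a p-value. To compare promoters, the CMV log2 fold change was taken from that of hTNNT2 and divided by the square root of their summed squared SE, with a 2-sided normal p that was Benjamini-Hochberg adjusted over 20754 genes. The labels do not describe litters or batches, so p-values measure the spread between these samples. The genes and lists were chosen with earlier results of these data known. Named genes were the 10 genes, up to 6 of the calcium list by p in each table, and up to 2 markers of smallest p of the macrophage, fibroblast and smooth muscle lists. Atrial markers of highest count were also named, and Bmp10 for its unadjusted p. All list names but Erln and Ighm were matched. Alternatives changed threshold, centring, count filter, scale and shrinkage. Lengths and positions came from GENCODE M21. Python 3.11.15, numpy 2.4.6, pandas 2.3.3, scipy 1.17.1 and matplotlib 3.10.9 were used.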

Additional observations from a re-analysis of the deposited data

Results flagged for a closer look

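Zeb2os, the cargo, differed in its response between the promoters. Its log2 fold change was 0.87 higher with hTNNT2 than with CMV on the deposited scale (SE 0.11, adjusted p = 4.02e-11 in the normal test of the difference). With the shrinkage approximately undone the difference was 1.78 (SE 0.21), an SE that leaves out the error of the undoing itself. None of the 9 calcium cycling genes tested was singled out in this way.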

How the results depend on the processing

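No paired analysis was possible because the groups compared share no mouse number, and leaving out each mouse in turn was not run because no value per mouse was analysed here. The number of calcium cycling genes changed stayed at 0 in both comparisons and in the difference between promoters under the 16 alternatives run, except that an unadjusted p under 0.05 gave 1 with hTNNT2. That threshold gave 2 of the wider calcium list with hTNNT2 and 3 with CMV. It gave 841 genes in all with hTNNT2, 357 with CMV and 550 in the difference. An adjusted p under 0.1 gave 17, 2 and 2, and dividing the statistic by its robust spread gave 17 with hTNNT2 and 7 with CMV. A mean count of at least 50 gave 12 with hTNNT2 and 2 with CMV, and centring on the median gene gave 2 with CMV. In the difference, 0 genes passed when Wald statistics replaced fold changes, so that Zeb2os was called there on the scale of fold changes but not on that of statistics. With centring, each calcium cycling gene kept its sign, and none of the 19 values with a p-value passed (smallest adjusted p 1.00). Undoing the shrinkage leaves sign and p as they are by construction, so it is no check of the calls within a table. The median moved to -0.070 and -0.10 with hTNNT2 and to 0.023 and 0.030 with CMV under these 2 settings. Dividing by the longest transcript raised the median level to 11159 counts per kilobase with hTNNT2 and 9574 with CMV, against 8482 and 7198; the cause is the shorter length used. Changes smaller than about 2 SE are beyond the precision of these comparisons.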

Other observations

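Casq1, the calsequestrin gene of skeletal muscle, was singled out after its values were seen. Its mean count was 14700 in the authors' deposited hTNNT2 table and 12674 in the deposited CMV table, against 12.8 and 7.58 for Ryr1 and 54.2 and 38.2 for Atp2a1, other genes best known from skeletal muscle. Its log2 fold change was 0.099 (SE 0.080, p = 0.213) with hTNNT2 and 0.086 (SE 0.070, p = 0.218) with CMV in the authors' deposited tables. Casq1 lies on the minus strand of chromosome 1 (172209894 to 172219868, GRCm38), and the annotated antisense transcript Gm17224 shares 156 of its 1951 exonic bases.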
